A study of Mus musculus with 8 samples.

Results

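The regions described here were open chromatin at the start of the course, before PU.1 was restored, and were called at none of the 6 later times sampled in total cells. Summits of 8 ATAC-seq peak lists, in which a transposase marks accessible DNA, were widened to 150 bp on either side and merged, and a region holding a summit from a given library was counted as open there. The regions were chosen by these calls alone, that is, on the presence or lack of a summit in 7 of the 8 lists. Of 68800 regions, 35410 were open at day 0, and 1386 of these were without a call at day 4, 8 or 12 on doxycycline (Dox) or at 4, 8 or 12 days after its withdrawal. They are called day-0-only regions below. They made up 2.01% of all regions and 3.91% of the regions open at day 0. They were also 35.9% of the 3866 regions open at day 0 but not called in total cells on Dox. The other 2480 of those 3866, called again at 1 or more times off Dox, are called reopened regions.

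The cells were AML246, a mouse acute myeloid leukaemia line grown with IL-3. Per the labels, PU.1 was restored with 0.1 µg/mL Dox from day 0 to day 12, and the time after withdrawal is labelled knockdown. Each group was 1 library. Viable cells without further sorting were taken untreated at day 0, after 4, 8 and 12 days of Dox, and at 4, 8 and 12 days off it, and viable CD11b-high cells were sorted after 12 days of Dox. The labels name neither the mouse strain, nor other alleles, nor the construct that Dox controls. The extraction protocol also mentions ChIP, and the libraries were taken as ATAC-seq from the series title, the design text and the library preparation. With 1 library a group there was no replicate error and no test between conditions, and intervals in parentheses are exact Clopper-Pearson 95% intervals that cover counting error only. Where a count was 0, the limit it allows was set separately, at 3 counts of the total, and is not an exact bound.

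PU.1, encoded by Spi1, is an ETS-family transcription factor that drives myeloid differentiation and can hold enhancers open in macrophages and other myeloid cells. In acute myeloid leukaemia, low PU.1 activity is known to go with a block of differentiation. An ATAC-seq peak marks DNA that is free enough of nucleosomes to be cut, as at active promoters and enhancers, and says nothing of which factor is bound. CD11b, the integrin subunit encoded by Itgam, is a surface marker of mature myeloid cells.

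The lists held 31957 to 51175 summits, with 36137 at day 0, and the depth behind them is unknown. A summit's score was taken to be its −log10 p or q, and percentiles of score were taken within a list. In the alternative settings, score limits of 5 and 10 were applied to all lists alike. Scores of different lists are given side by side without a test. All 5 blood cell identity genes checked (Ptprc, Spn, Cd53, Laptm5 and Coro1a) had a region open at day 0, and 3 of the 5 had an open promoter. Of 10 genes of other tissues, 5 also had a region open at day 0, but none of the 8 with a promoter sequence in the table had an open promoter. Of the 5 myeloid progenitor genes, Kit and Myb had an open promoter, and Mpo and Elane had no region open at day 0. The fifth, Prtn3, had 3 regions open at day 0 but no open promoter. Of the 7 regions at Spi1, 3 were open at day 0, and these were also called at later times.

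Day-0-only regions at gene starts either had a summit of a later list close by or stood alone. Promoter windows of 300 bases (250 before to 50 after the start site, RefSeq, GRCm38.p6, also called mm10) were overlapped by 49 of the 1351 day-0-only regions on chromosomes for which windows were used, 3.63%. In the sequences below, capitals mark the bases inside the day-0-only region. The first 4 are the gene starts under the highest day-0 scores, and each of them had a summit of a later list within 1 kb.

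Tmco3 (chr8:13287763-13288062, plus strand): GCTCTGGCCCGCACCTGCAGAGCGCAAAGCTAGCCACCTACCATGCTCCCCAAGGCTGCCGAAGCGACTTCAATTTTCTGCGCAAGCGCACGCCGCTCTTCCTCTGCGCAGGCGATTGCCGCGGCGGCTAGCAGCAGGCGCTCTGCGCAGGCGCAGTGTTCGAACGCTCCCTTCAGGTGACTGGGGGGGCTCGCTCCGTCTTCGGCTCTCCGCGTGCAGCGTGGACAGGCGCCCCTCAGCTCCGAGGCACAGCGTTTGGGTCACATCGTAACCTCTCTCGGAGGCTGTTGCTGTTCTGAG
Msl3 (chrX:168673823-168674122, minus strand): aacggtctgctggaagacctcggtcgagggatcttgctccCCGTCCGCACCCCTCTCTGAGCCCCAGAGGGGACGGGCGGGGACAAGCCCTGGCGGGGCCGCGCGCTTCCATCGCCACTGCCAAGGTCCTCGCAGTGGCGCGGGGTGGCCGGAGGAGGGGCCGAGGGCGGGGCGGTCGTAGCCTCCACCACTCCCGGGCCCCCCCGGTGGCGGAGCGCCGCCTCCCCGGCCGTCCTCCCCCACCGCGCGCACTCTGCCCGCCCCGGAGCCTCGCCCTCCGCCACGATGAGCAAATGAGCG
Ninj1 (chr13:49187279-49187578, plus strand): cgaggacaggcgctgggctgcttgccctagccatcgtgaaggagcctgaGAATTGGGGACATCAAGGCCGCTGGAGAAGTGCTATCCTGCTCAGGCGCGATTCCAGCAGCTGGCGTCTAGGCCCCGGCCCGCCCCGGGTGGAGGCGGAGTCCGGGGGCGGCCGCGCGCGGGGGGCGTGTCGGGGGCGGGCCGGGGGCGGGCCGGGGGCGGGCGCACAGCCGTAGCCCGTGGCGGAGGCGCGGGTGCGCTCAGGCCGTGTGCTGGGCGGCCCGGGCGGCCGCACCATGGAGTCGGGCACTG
Prkag2 (chr5:25100593-25100892, minus strand): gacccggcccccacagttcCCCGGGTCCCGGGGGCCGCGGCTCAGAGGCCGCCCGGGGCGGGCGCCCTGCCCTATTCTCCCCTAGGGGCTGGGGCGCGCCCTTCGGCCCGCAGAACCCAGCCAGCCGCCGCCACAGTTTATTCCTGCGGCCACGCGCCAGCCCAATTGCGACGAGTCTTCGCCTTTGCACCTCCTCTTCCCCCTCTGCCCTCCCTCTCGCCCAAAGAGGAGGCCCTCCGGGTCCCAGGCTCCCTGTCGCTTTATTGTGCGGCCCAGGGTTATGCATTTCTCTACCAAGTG

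At Tmco3, whose start lies beside that of Dcun1d2, the day-0 score was 38.3 and the nearest later summit was 637 bp from the day-0 summit. The region was also open in CD11b-high cells, with a score of 21.4. At Msl3, a component of the MSL histone acetyltransferase complex, the day-0 score was 28.7 and the nearest later summit lay at 338 bp. Ninj1, which encodes a membrane protein of cell rupture, had a score of 27.3 at day 0 and 11.9 in CD11b-high cells, with a later summit at 567 bp. Prkag2, a regulatory subunit of AMP-activated kinase, had a day-0 score of 23.2 and a later summit at 452 bp. All 4 windows were rich in G and C, at 65.3% to 76.3%, and held 25 to 37 CG pairs.

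The next 3 are the gene starts with the highest day-0 scores among regions with no later summit within 1 kb.

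C1rb (chr6:124570180-124570479, plus strand): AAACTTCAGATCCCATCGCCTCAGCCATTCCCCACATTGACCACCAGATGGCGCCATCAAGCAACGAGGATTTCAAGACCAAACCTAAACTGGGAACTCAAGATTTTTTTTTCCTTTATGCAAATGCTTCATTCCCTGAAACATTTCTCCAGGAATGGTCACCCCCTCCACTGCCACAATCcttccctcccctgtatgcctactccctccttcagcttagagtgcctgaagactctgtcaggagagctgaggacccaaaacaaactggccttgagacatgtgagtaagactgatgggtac
Sptbn4 (chr7:27396149-27396448, minus strand): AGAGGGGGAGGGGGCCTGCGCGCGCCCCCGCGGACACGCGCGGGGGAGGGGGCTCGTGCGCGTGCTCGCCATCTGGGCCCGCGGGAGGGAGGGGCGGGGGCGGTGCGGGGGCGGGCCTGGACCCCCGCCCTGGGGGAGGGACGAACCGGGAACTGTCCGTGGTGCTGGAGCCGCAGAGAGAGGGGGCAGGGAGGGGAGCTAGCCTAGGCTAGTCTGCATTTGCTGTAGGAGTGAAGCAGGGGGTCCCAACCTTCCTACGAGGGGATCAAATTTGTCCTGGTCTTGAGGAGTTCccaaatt
Hbq1a (chr11:32299819-32300118, plus strand): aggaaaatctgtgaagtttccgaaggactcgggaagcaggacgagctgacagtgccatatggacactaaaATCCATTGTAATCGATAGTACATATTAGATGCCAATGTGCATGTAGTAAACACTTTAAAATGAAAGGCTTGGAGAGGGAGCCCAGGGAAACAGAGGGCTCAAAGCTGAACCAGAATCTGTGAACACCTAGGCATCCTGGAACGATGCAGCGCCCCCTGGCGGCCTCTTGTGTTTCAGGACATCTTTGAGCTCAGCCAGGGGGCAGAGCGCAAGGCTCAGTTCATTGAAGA

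C1rb, a complement C1r protease gene, had a day-0 score of 7.23 and its nearest later summit 27586 bp away. Sptbn4, which encodes a beta spectrin of neurons, had a score of 6.51, with a later summit at 1472 bp. Hbq1a, a theta globin gene of the alpha-globin cluster, had a score of 6.33, with the nearest later summit at 13043 bp. These scores were far below those of the first 4, and none of the 3 regions was open in CD11b-high cells.

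Letters of known motifs were searched on both strands of the 53 promoter windows that a day-0-only region overlapped. The whole window was searched, although some regions covered little of it, down to 8 bp. The GC box letters GGGCGG were in 66.0% of the 53, against 68.4% of the 10939 windows open at day 0 and 35.7% of all 32851 windows. They were in 79.2% of the 24 windows whose region had a later summit within 1 kb and in 55.2% of the 29 others. CCGGAAG, found in many ETS sites, was in 3 windows, 5.66%, against 20.2% of windows open at day 0 and 8.86% of all. GAGGAAGT, letters of the PU.1 kind of ETS site, was in 1 window, 1.89%, against 3.05% of windows open at day 0 and 3.20% of all. The GATA letters AGATAA were in 4 windows (7.55%, against 5.12% of windows open at day 0 and 11.2% of all), the RUNX letters TGTGGT in 5 (9.43%, against 12.5% and 16.8%), and CCAAT in 20 (37.7%, against 39.3% and 37.4%). The AP-1 letters TGANTCA were in 1 window, 1.89%, against 4.32% of windows open at day 0 and 7.81% of all, and the E-box CACGTG in 1, against 11.0% and 7.15%. CCGGAAG and GAGGAAGT share letters but differ before GGAAG, so 1 site cannot match both. These windows cover few of the day-0-only regions, and the others were not searched for motifs.

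Day-0-only regions were weak calls of the day-0 list. Their day-0 scores ran from 1.33 to 44.7 with a median of 4.62 and quartiles of 3.39 and 6.33. Reopened regions had a median of 5.46 (quartiles 4.24 and 7.54), and all regions open at day 0 a median of 11.9 (6.62 and 27.4). The median day-0-only region stood at percentile 11.4 of the day-0 list, and the median reopened region at percentile 17.3. A score of at least 10 was reached by 55 day-0-only regions, 3.97%, and by 280 reopened regions, 11.3%. Scores repeated at this end of the list, and 101 day-0-only regions shared the value 5.46. Since the day-0 call chose the regions, these values describe them and carry no test.

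**Figure D1:**
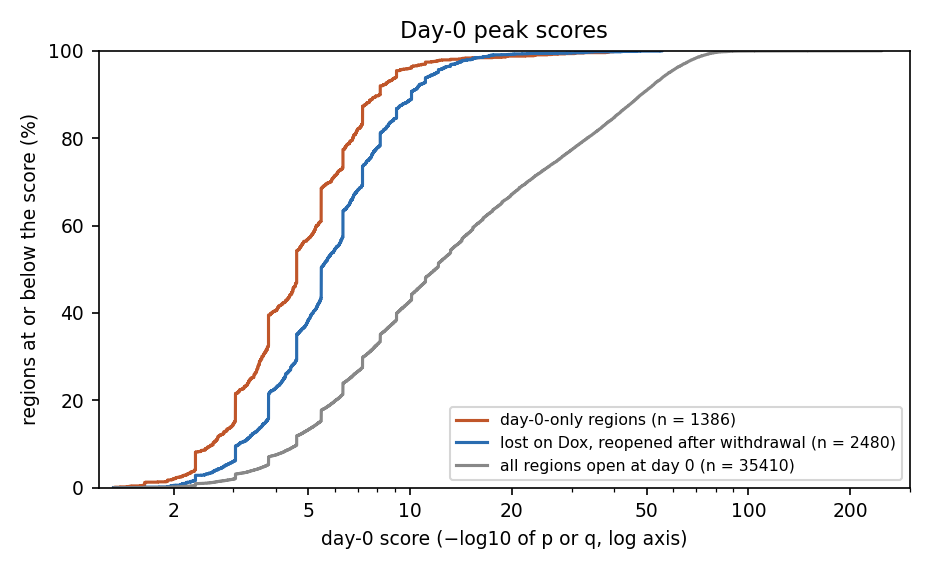
Share of regions (y axis, %) at or below a day-0 score (x axis, −log10 of p or q on a log axis) for 1386 day-0-only regions, 2480 reopened regions and all 35410 regions open at day 0. The day-0-only curve lies to the left of the reopened curve over most of the range, with medians of 4.62 and 5.46, and the steps are scores that many regions share.

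The lower the day-0 score, the more often a region was day-0-only. Of the 705 regions open at day 0 with a score under 3, 28.7% were, as were 14.7% of the 3999 scoring 3 to 5 and 6.52% of the 6948 scoring 5 to 8. The share was 1.79% of 6161 scoring 8 to 12 and 0.188% of 17597 scoring 12 or more. Among the regions open at day 0 but not called in total cells on Dox, the day-0-only ones were 57.4% of those scoring under 3. They were 21.2% of those scoring 12 or more.

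Most of the strongest day-0-only regions lay beside a summit that was called in a later list. The 22 with the highest scores all had a summit of a later total-cell list within 1 kb of the region. The highest of all, inside Gm34296 (chromosome 4, 133814037 to 133814355), scored 44.7 at day 0 and 18.3 in CD11b-high cells, with a later summit 350 bp from its own. The next highest, named after its values were seen, was inside Sertad2, a transcriptional regulator gene (chromosome 11, 20631334 to 20631634), and scored 44.6 at day 0 with a later summit at 316 bp. The region nearest to Csf2ra, a chain of the GM-CSF receptor (chromosome 19, 61266522 to 61266822, 38211 bp from the gene), scored 21.9 with a later summit at 457 bp. Beside the Gm34296 region, the region that held the nearest later summit (133813409 to 133814005) had no call at day 0. These positions lost their own summit while another was called close by, so the lists do not show that the locus closed and stayed closed. A region without a summit was not called, which is not the same as closed.

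In all, 385 day-0-only regions, 27.8%, had a later summit within 1 kb, against 97.2% of the regions open at day 0, most of which hold a later summit themselves. Of the 385, 299 had such a summit both on Dox and off it. Merging joined summits up to 300 bp apart, and 79 day-0-only regions had their nearest later summit at 301 to 350 bp, with a median score of 4.06. The strongest day-0 summit was taken from each region open at day 0. Of these summits, 101 had the nearest later summit at 251 to 300 bp, just inside the merging distance, with a median score of 6.47. The remaining 1001 day-0-only regions had none within 1 kb and a median distance of 10006 bp to the nearest later summit. Their scores reached 15.3, and 24 of them scored 10 or more.

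**Figure D2:**
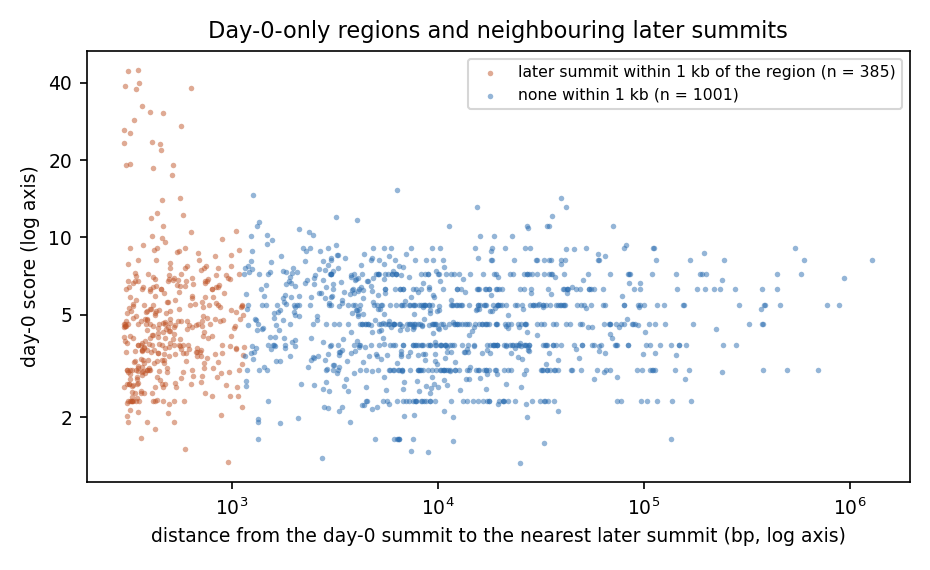
Day-0 score (y axis, log) against the distance from the day-0 summit to the nearest summit of the 6 later total-cell lists (x axis, bp, log) for each of the 1386 day-0-only regions, coloured by whether a later summit lay within 1 kb of the region. All points above a score of 15.3 belong to the 385 regions with a later summit within 1 kb.

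Among the 1001, the highest score, 15.3, was inside Dgkh, a diacylglycerol kinase gene (chromosome 14, 78668297 to 78668597), 6379 bp from the nearest later summit. The next was inside Tex14, a gene of germ cell bridges (chromosome 11, 87450254 to 87450554), with a score of 14.6. A region 7603 bp from Sh3tc2 scored 14.2, and regions inside Ina, which encodes the neuronal filament protein internexin (chromosome 19, 47016564 to 47016864), and 26791 bp from Zcchc12 on chromosome X scored 13.2 each. Regions 35416 bp from Asap2, an Arf GTPase-activating protein gene, and 3024 bp from H2-K1, a class I histocompatibility gene, scored 12.1 and 12.0. One inside Nup210, a nuclear pore gene, scored 11.7. None of these 8 was open in CD11b-high cells.

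The CD11b-high library of day 12 was the only list the rule did not use, and few day-0-only regions were open in it. Of 1386, 45 were, or 3.25% (2.38 to 4.32), against 9.80% (8.66 to 11.0) of reopened regions, 70.4% of all regions open at day 0 and 51.1% of all regions. The rule left out regions called in total cells at day 12, a population that holds the CD11b-high cells, and this applies to both classes. The 2 classes also differ by construction in the number of lists that called them, since a reopened region had a summit in at least 1 more list. Within classes of day-0 score, 1 of 202 day-0-only and 9 of 150 reopened regions with scores under 3 were open in CD11b-high cells. The share was 1.53% (0.702 to 2.89) of day-0-only and 8.60% (6.76 to 10.8) of reopened regions at scores of 3 to 5, and 4.19% (2.54 to 6.47) and 9.59% (7.82 to 11.6) at 5 to 8. At 8 to 12 it was 8.18% (3.81 to 15.0) and 11.8% (8.86 to 15.2). Only at scores of 12 or more was it higher in day-0-only regions, at 7 of 33 (21.2%, 8.98 to 38.9) against 17.1% (10.9 to 24.9), and there and at 8 to 12 the intervals overlapped. All 7 had a later summit within 1 kb, and of the 7 regions at such scores without one, 0 were open, which allows a share of up to 42.9% by the limit of 3 counts.

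Regions open in exactly 1 of the other 6 total-cell libraries gave the same measure for other single-list calls, and 9.79% of those 15008 regions were open in CD11b-high cells. The share was 6.14% (4.91 to 7.58) for day 4 alone, 17.4% (16.2 to 18.6) for day 8 alone and 19.5% (17.4 to 21.7) for day 12 alone. Regions of day 12 alone, which the 9.79% includes, were called in the total cells that hold the CD11b-high cells. The other kinds, day-0-only regions among them, had no call there by definition. It was 5.76% (5.17 to 6.39), 4.09% (3.23 to 5.10) and 5.88% (4.42 to 7.64) for 4, 8 and 12 days off alone. The 3.25% of day-0-only regions was the lowest, with an interval that overlapped only that of 8 days off. This order depended on the settings. With lists of equal length the day-0-only share was 7.44% and that of 12 days off was lower, at 5.43%. With summits scoring under 5 left out of the lists before the rule was applied, it was 4.44%, with 8 days off lower at 3.28%. With summits extended by 250 bp it was 3.13%, with 12 days off lower at 2.95%.

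**Figure D3:**
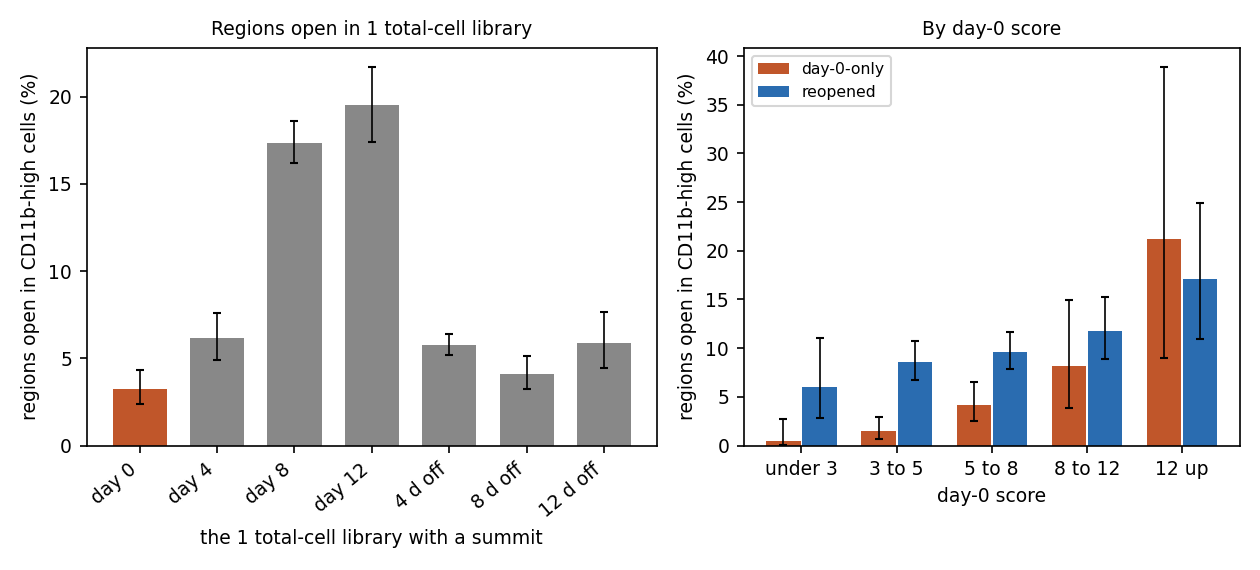
Left, share of regions open in CD11b-high cells (y axis, %) among regions open in 1 of the 7 total-cell libraries, by that library, with day 0 at 3.25% and day 12 at 19.5%. Right, the same share for day-0-only and reopened regions in classes of day-0 score, where the day-0-only bars are lower up to a score of 12. Error bars are exact 95% intervals of counting error.

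The strongest CD11b-high calls among the 45 were inside Dpysl2, which encodes a collapsin response mediator (chromosome 14, 66868955 to 66869263), with a score of 25.4 there and 38.7 at day 0, and at Dcun1d2, with 21.4 and 38.3. Gm34296 followed with 18.3 and 44.7. A region 520 bp from Gm33887 had 14.3 in CD11b-high cells and 6.99 at day 0, and a region 88386 bp from Tbl1xr1, a corepressor subunit gene, had 13.8 and 11.9. All 5 had a summit of a later total-cell list at 304 to 637 bp from the day-0 summit. Without regions that had a later summit within 1 kb, 29 of 1001 were open in CD11b-high cells, 2.90% (1.95 to 4.13).

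The number of day-0-only regions lay within the range of the other lists. Regions open in 1 total-cell library numbered 1386 for day 0, 1319 for day 4, 3843 for day 8 and 1344 for day 12, and 5786, 1832 and 884 for 4, 8 and 12 days off. With every list cut to the length of the shortest, these were 1666, 1628, 1318 and 2138, and 1427, 1160 and 2044. The day-0 number then lay between those of the other 6. Each kind also stood low in its own list. The median percentile of score was 11.4 for day 0 alone, 9.07, 15.3 and 16.7 for day 4, 8 and 12 alone, and 14.0, 10.6 and 11.0 for 4, 8 and 12 days off alone.

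**Figure D4:**
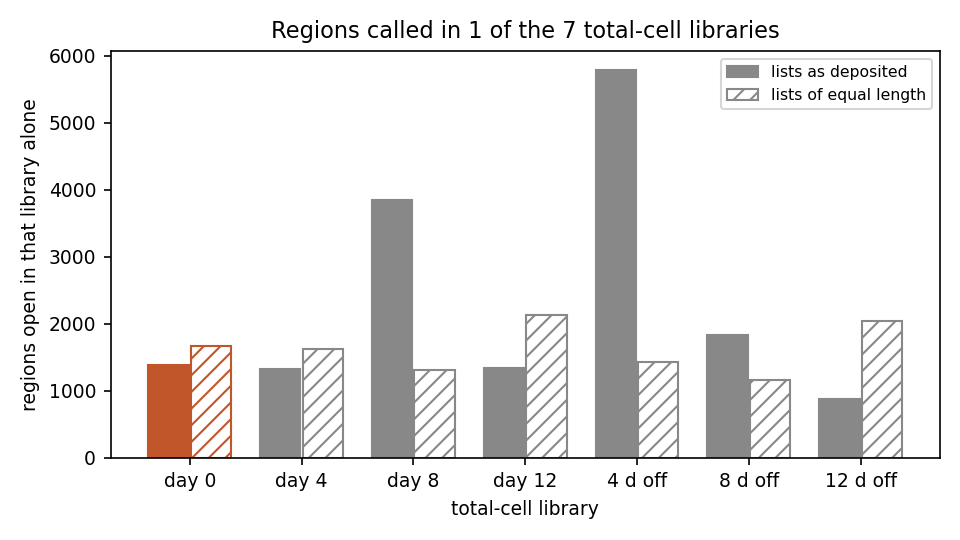
Number of regions open in 1 of the 7 total-cell libraries (y axis), by library (x axis), with the lists as deposited (filled) and cut to equal length (hatched), day 0 in orange. At equal length day 0 holds 1666, between 1160 for 8 days off and 2138 for day 12.

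Day-0-only regions lay near gene ends less often than regions open at day 0 as a whole. Of 1386, 188 had their midpoint within 1 kb of an end of a protein-coding gene, 13.6% (11.8 to 15.5), against 12.5% (11.2 to 13.9) of reopened regions, 30.1% of regions open at day 0 and 21.9% of all regions. The 385 with a later summit within 1 kb were there in 34.0% (29.3 to 39.0), and the 1001 without one in 5.69% (4.34 to 7.32). Inside genes lay 50.9% of day-0-only regions, 52.2% of reopened regions and 53.4% of regions open at day 0. No protein-coding gene was within 100 kb of 8.87% (7.43 to 10.5) of day-0-only regions, against 7.90% (6.87 to 9.04) of reopened regions and 4.81% of regions open at day 0. Among other single-list sets, the share near gene ends was 12.2% (11.4 to 13.1) for 4 days off alone and 12.7% (11.2 to 14.3) for 8 days off alone. It was lower for day 4 alone, at 10.0% (8.44 to 11.76), and for day 8 alone, at 10.9% (9.93 to 11.9). The share was higher for day 12 alone, at 31.9% (29.4 to 34.5), and for 12 days off alone, at 21.0% (18.4 to 23.9). The median distance from a day-0-only region to the nearest other one was 417042 bp, and 280 had another within 100 kb.

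Chromosomes 5 and 10 held more day-0-only regions than the other autosomes, and were singled out after these values were seen. Of the regions open at day 0, 146 of 2742 on chromosome 5 (5.32%, 4.51 to 6.23) and 138 of 2426 on chromosome 10 (5.69%, 4.80 to 6.69) were day-0-only, against 2.95% to 4.55% on the 17 other autosomes. Reopened regions were 7.18% of regions open at day 0 on these 2 chromosomes, against 6.97% elsewhere. Without regions that had a later summit within 1 kb the shares were 4.08% (3.37 to 4.89) on chromosome 5 and 4.58% (3.78 to 5.48) on chromosome 10, against 2.57% outside both. By this measure chromosome 14, at 4.02% (2.86 to 5.47), was close to chromosome 5, and its interval overlapped those of both. The day-4 list had the same feature, with regions open at day 4 alone at 6.34% and 6.14% of its open regions on chromosomes 5 and 10 and 1.95% to 4.65% on the 17 other autosomes. On both chromosomes together the share of regions open in that list alone was 4.02%, against 3.93% elsewhere, for day 12, and 3.59%, against 2.71%, for 12 days off. For 8 days off it was 4.89% against 4.45%. It was lower than elsewhere for day 8, at 7.90% against 8.44%, and for 4 days off, at 10.5% against 11.7%.

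The excess on chromosomes 5 and 10 was made of weak calls. At scores under 3, 67 of 172 regions on these chromosomes were day-0-only (39.0%, 31.6 to 46.7), against 25.3% (21.7 to 29.2) of regions elsewhere. At 3 to 5 it was 23.0% (19.8 to 26.5) against 13.2% (12.0 to 14.3), and at 5 to 8 it was 6.17% (4.74 to 7.87) against 6.58% (5.96 to 7.23). Of all summits of chromosomes 5 and 10, 3.50% scored under 3 at day 0 and 4.31% at day 4, against 1.94% and 2.70% on the other chromosomes. Of the 6 lists later than day 4, CD11b-high cells included, 4 also had the higher share on chromosomes 5 and 10, at 2.19% against 1.71% for day 8, and at 2.07% against 1.75%, 2.47% against 1.84% and 3.16% against 2.46% for 4, 8 and 12 days off. The share was lower there for day 12, at 2.83% against 2.99%, and for CD11b-high cells, at 2.85% against 2.99%. At regions open in all 8 libraries, the median day-0 score relative to the library's own median was 1.07 on chromosome 5 and 0.957 on chromosome 10. The part of these values in the excess was not tested.

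On chromosome X, 37 of 741 regions open at day 0 were day-0-only, 4.99% (3.54 to 6.82). On that chromosome, 85 regions were open at day 0 but not called in total cells on Dox. Of these, 2 were open at all 3 times off (2.35%), against 15.8% of the 3866 in the whole set. The relative score of always-open regions on chromosome X was 1.05 at day 0 and 1.01 at day 4, and 0.847 to 0.900 in the other libraries. Its part in the result was not tested.

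**Figure D5:**
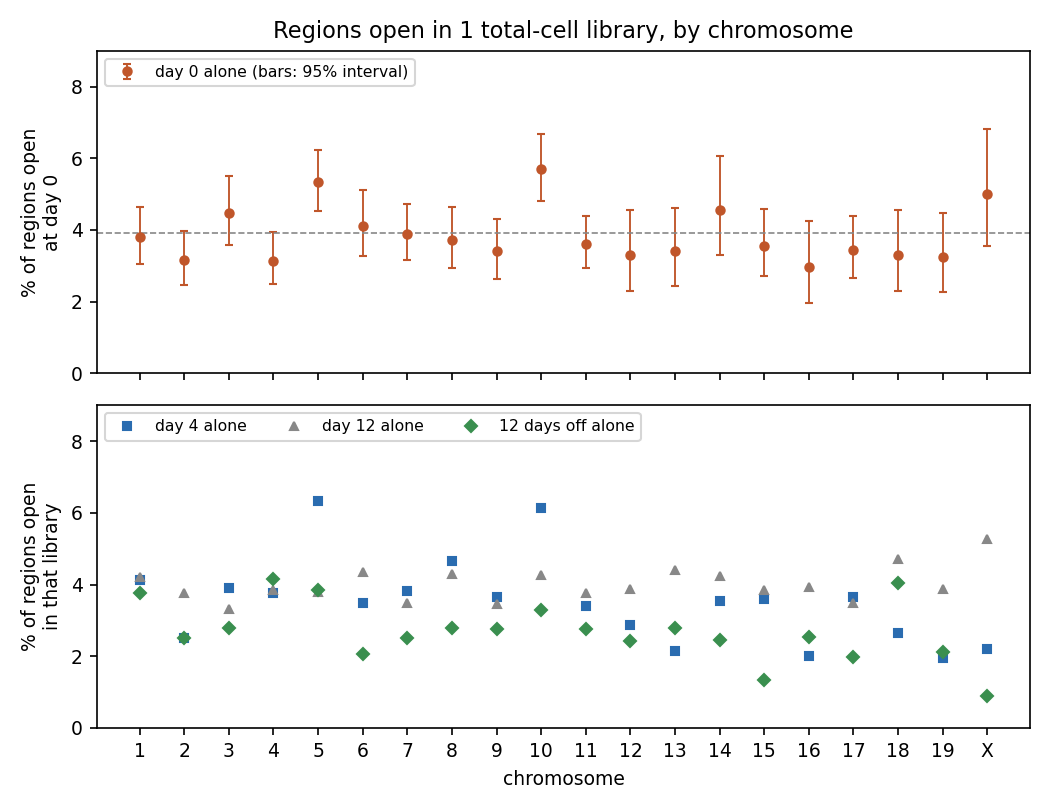
Above, day-0-only regions as a share of the regions open at day 0 (y axis, %), by chromosome (x axis), with exact 95% intervals and the share over all chromosomes as a dashed line. Below, the same share for regions open at day 4, day 12 or 12 days off alone, out of the regions open in that library. Of the autosomes, chromosomes 5 and 10 stand highest for day 0, at 5.32% and 5.69%, and for day 4, at 6.34% and 6.14%.

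By gene, the day-0-only regions were spread thin. The 1263 regions within 100 kb of a protein-coding gene fell to 1096 genes with 1, 70 genes with 2 and 9 genes with 3, and no gene had more. Of the 9, Nav3, Ppm1h, Hmga2, Msrb3 and Wasf1 are on chromosome 10 and Ppargc1a is on chromosome 5. Kcnip1 had 3 of its 13 regions open at day 0 day-0-only, Bms1 3 of 6, Tead1 3 of 9, Nav3 3 of 7, Ppm1h 3 of 18, Ppargc1a 3 of 6, Hmga2 3 of 9, Msrb3 3 of 16 and Wasf1 3 of 3.

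At Ppargc1a, which encodes the metabolic coactivator PGC-1 alpha, all 3 day-0-only regions were inside the gene. Their day-0 scores were 4.29 (chromosome 5, 51552532 to 51552832), 3.61 (51681892 to 51682192) and 4.58 (51748026 to 51748326), and the nearest later summits were 101618, 27742 and 93876 bp away. The region 264 bp from the gene's end was open in all 8 libraries, as was a further region inside it, at 52065048 to 52065391. At Tead1, a Hippo pathway transcription factor, 2 day-0-only regions adjoined each other inside the gene (chromosome 7, 112807165 to 112807465 and 112807529 to 112807829), with scores of 3.81 and 7.23. The third, 35262 bp outside, scored 7.23.

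Hmga2, a chromatin protein of fetal stem cells, had its day-0-only regions outside the gene, with scores of 5.86, 2.41 and 3.81. The one nearest the gene, at 1838 bp, had a later summit at 1071 bp. At Bms1, a ribosome assembly gene, scores were 10.1, 8.16 and 5.46, and the region scoring 8.16 was open in CD11b-high cells at 4.14. At Nav3, a neuron navigator gene, the region at chromosome 10, 109765676 to 109765990, scored 6.63 at day 0 and 5.93 in CD11b-high cells, and the other 2 scored 4.95 and 2.32. Kcnip1, a potassium channel-interacting protein gene, had scores of 5.46, 4.36 and 17.5, the last with a later summit at 516 bp. Ppm1h, a phosphatase gene, had 4.43, 4.62 and 3.73. Msrb3, a methionine sulfoxide reductase gene, had 2.30, 4.54 and 3.49, and Wasf1, an actin regulator gene, had 2.87, 3.21 and 3.05.

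Among the genes with 2, Gm34296, Msl3 and Slc39a8, a zinc and manganese transporter gene, had the highest summed scores. Their stronger regions scored 44.7, 28.7 and 30.6 and each had a later summit within 1 kb. In each case the neighbouring region that held the nearest later summit had no call at day 0.

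Gene lists of blood lineages and pathways were then read against the 3.75% of gene-assigned day-0 regions that were day-0-only. The lists were chosen with earlier results of these data known, and their counts are small. Over the 281 genes of 18 lists, 37 of 684 regions open at day 0 were day-0-only, 5.41%.

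Monocyte and macrophage genes had 0 of 33, which allows a share of up to 9.09% by the limit of 3 counts. By the same limit, megakaryocyte genes with 0 of 27 allowed up to 11.1%, mast cell and basophil genes with 0 of 12 up to 25.0%, and eosinophil genes with 0 of 10 up to 30.0%. All 4 limits lie above the 3.75% over all genes, so no difference from it was detectable in these lists. Neutrophil and granulocyte genes had 1 of 22, at the start of Gfi1, which encodes a transcriptional repressor needed for granulocyte development. That region had a score of 6.44 and a later summit at 318 bp. Dendritic cell genes had 1 of 35, 88224 bp from Irf8, which encodes an interferon regulatory factor of monocytes and dendritic cells, with a score of 4.62. Erythroid genes had 2 of 18 (11.1%, 1.38 to 34.7), inside Rhag, a membrane protein of the Rh complex, and inside Ermap, with scores of 7.23 and 5.46 and no later summit within 1 kb.

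Stem and progenitor genes had 4 of 62 (6.45%, 1.79 to 15.7), the 3 of Hmga2 and 1 at Myb, a transcription factor of progenitors, 9381 bp outside the gene with a score of 4.34. All 4 were on chromosome 10. Myeloid transcription factors had 5 of 83 (6.02%, 1.98 to 13.5). Of these, 2 were 18470 and 115 bp from the AP-1 gene Fosl2, with scores of 3.81 and 3.57, and the nearer one had a later summit at 584 bp. Another was 10613 bp from Fos, with 5.98, and Gfi1 and Irf8 had 1 each. Known PU.1 targets had 3 of 45 (6.67%, 1.40 to 18.3). They were 38211 bp from Csf2ra, 6630 bp from the integrin gene Itgb2 with a score of 4.66, and inside the CD45 gene Ptprc with 3.75. B cell genes had 2 of 32, 911 bp from Ebf1 and 84831 bp from Bach2, both at 4.62. T and NK cell genes had 1 of 66, inside Tcf7, with a score of 6.32 and a later summit at 309 bp.

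Cell cycle genes had 6 of 73 (8.22%, 3.08 to 17.0), with the kinase gene Cdk6 holding 2, scoring 3.81 and 2.87. The inhibitor genes Cdkn1a and Cdkn2b had 1 each, 10070 and 43094 bp outside the gene, scoring 7.33 and 5.46. Integrin and adhesion genes had 2 of 42, 6630 bp from Itgb2 and inside Itgav. The one inside Itgav scored 1.65, with a later summit at 364 bp. Wnt and Notch pathway genes had 3 of 61, inside Wnt10b, 73612 bp from Fzd1 and 31862 bp from Rbpj, scoring 4.47, 3.05 and 2.30. The one nearest to Rbpj had a later summit at 323 bp. Neuronal genes had 7 of 54 (13.0%, 5.37 to 24.9), with Nav3 holding 3, Syt1 with 2, Nrxn3 with 1, at a score of 11.1, and 1 other gene with 1. Nav3 was put into that list with its losses known, and without it the count was 4 of 47, 8.51%, below the erythroid list at 11.1% and other non-blood tissues at 9.52%. Of the 7, 5 were on chromosome 10. Other non-blood tissue genes had 2 of 21, at Krt14 and Col1a2, and housekeeping genes 1 of 41, 43343 bp from Ywhaz. The region nearest to Ywhaz had a later summit at 676 bp.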

How the data were processed

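ATAC-seq of AML246 cells gave 8 peak lists, 1 per group. The deposited score of each summit is taken here to be its −log10 p-value or its −log10 q-value, since the lowest lay at 1.30 to 1.39 in every list, where 0.05 falls. The build is mm10 and the tools named are Picard 2.14.0 and MACS2, per the submitters' processing notes. The sources used here give no aligner, MACS2 version or depth. Summits of the 19 autosomes, X and Y were widened by 150 bp to each side and merged with Python 3.11.15 and pandas 2.3.3. Genes were assigned within 100 kb by distance from the region's midpoint to the span of 21887 protein-coding RefSeq genes (GRCm38.p6). All 281 list genes matched. The promoter table held 32851 windows. Shares carry Clopper-Pearson intervals (scipy 1.17.1), and neighbouring regions are not independent. No test was run. Members and gene lists were chosen with earlier results of these data known. Genes named were the 12 with most such regions, the 8 highest-scoring regions without a later summit within 1 kb, the 5 with the highest CD11b-high score and up to 3 genes a list. Gene starts shown were the highest-scoring ones, and the 3 without a neighbouring later summit were added after the values were seen. Alternatives were another extension, score limits, lists of equal length, neighbouring summits, and each later list left out of the rule. The code of the rule was run on simulated lists of widely spaced sites, so regions near the merging distance were not tried.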

Additional observations from a re-analysis of the deposited data

Results flagged for a closer look

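Summits on unplaced contigs were left out of the regions. Merged by the same steps they gave 191 regions, 91 of them open at day 0, and 7 of these met the rule for day-0-only regions. That is 7.69% (3.15 to 15.2), an interval that holds the 3.91% found over all regions open at day 0. They are listed here because the count is above 3, the limit set for a count of 0.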

How the results depend on the processing

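Day-0-only regions numbered 2103 with summits extended by 75 bp. They numbered 923 at a score of at least 5 and 676 at a score of at least 10, with weaker summits left out of the lists before the rule was applied. A region whose later summits were all weaker then counted as day-0-only, so these are not subsets of the main set. In the main set, 55 day-0-only regions scored 10 or more. Day-0-only regions numbered 1152 with summits extended by 250 bp and 1666 with lists of equal length. Leaving 1 of the 6 later lists out of the rule gave 1447 to 1907, the most without 4 days off, and 1341 were also not open in CD11b-high cells. The share open in CD11b-high cells was 4.44% at a score of at least 5, 1.33% at a score of at least 10 and 7.44% with lists of equal length. For reopened regions it was 7.99%, 4.14% and 14.4% under the same settings, and 11.5% with summits extended by 75 bp, so it stayed higher in reopened regions under each of the 6 planned settings tried for both. The share near gene ends was 16.9% and 9.64% with summits extended by 75 and 250 bp, 16.0% at a score of at least 10 and 5.69% without regions that had a later summit within 1 kb. The cause of these shifts was not tested. The median percentile of the day-0 score stayed between 10.3 and 13.5. Leaving out chromosomes 5 and 10, or X, chosen after seeing the data, kept the CD11b-high shares, the percentile and the share near gene ends within their intervals or quartiles. No paired analysis was possible because each group had 1 library. Read depth, which limits what is called, is unknown.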
